A study of Mus musculus with 12 samples.

Results

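Stable distal H3K27ac within genes comprised 2726 intervals of the mouse genome that carried acetylation of lysine 27 on histone H3 (H3K27ac) in mesenchymal stem cells (MSCs) at both oxygen levels examined. They were selected on the peak calls themselves. An interval had to be present in the H3K27ac list of cells kept at 2% oxygen (hypoxia) and in that of cells kept at 21% oxygen (normoxia), be under 20000 bp wide, lie over 1000 bp from every peak of trimethylated lysine 4 on histone H3 (H3K4me3) of either oxygen level, and have its midpoint inside the body of a protein-coding gene. The 2726 members were part of 22555 distinct intervals in all 4 peak lists. Being called at both oxygen levels, being narrow and being away from H3K4me3 were therefore chosen by the rule and are not results. Stable means called in both lists, and the level of H3K27ac may still differ between them. The paper compared levels with edgeR and reports regions that gained or lost H3K27ac in normoxia.

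The marks were mapped by ChIP-seq, in which chromatin is precipitated with an antibody and its DNA sequenced, with 2 libraries per mark and oxygen level beside 2 input libraries per oxygen level. The cells came from the bones of wild-type male C57BL6/N mice aged 3-5 months and had been sorted as CD45-/Ter-119-/Sca-1+/CD140a+ cells. The labels call them bone-marrow MSCs sorted on day 12, whereas the methods describe cells from the endosteal niche that were sorted and then kept at either oxygen level for a further week. No genetic change and no drug separated the groups. Nothing in the labels says that the libraries of a group came from separate animals. The paper describes its ChIP-seq data as 2 biologically independent experiments.

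Both libraries of a group had been combined by the authors into 1 peak list. The lists do not give depth per library, replicate spread or input signal, so no comparison has a replicate check or a p-value. In a sorted population, an interval carried by fewer cells and one with less signal per cell cannot be told apart. Where a share is given with a 95% CI, this is a Wilson interval for counting error only. Neighbouring intervals and the windows within an interval are not independent, which makes these intervals too narrow.

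H3K27ac marks active promoters and active enhancers, the stretches of DNA that bind transcription factors and raise the transcription of a gene from a distance. H3K4me3 is found mainly at promoters, so acetylated chromatin without it is the usual picture of an enhancer. Many enhancers of stromal cells lie inside introns, either of the gene they act on or of an unrelated gene, and factors of the AP-1, TEAD and RUNX families are known to bind them. The gene that holds an interval is called its host here, which says where the interval is and not what it acts on.

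Sequences of members from known genes are given as examples. The first set gives 100 bases around an AP-1 match in the 500 bp window at the midpoint of a narrow member (up to 4000 bp wide). Members in the gene lists or leading host genes were ranked by the lower of their H3K27ac scores, and 6 of the first 8 are shown. AP-1 is the dimer of FOS and JUN proteins that binds the letters TGACTCA or TGAGTCA. Capitals mark these letters. Each sequence of this set was chosen for such a match, which 19.7% of the 883 narrow members had in the midpoint window. All sequences are the plus strand of the GRCm38 (mm10) assembly from RefSeq.
Bach2, chr4:32250738-32250837: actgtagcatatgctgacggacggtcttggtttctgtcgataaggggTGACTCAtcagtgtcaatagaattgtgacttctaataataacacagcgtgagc
Wnt5b, chr6:119467558-119467657: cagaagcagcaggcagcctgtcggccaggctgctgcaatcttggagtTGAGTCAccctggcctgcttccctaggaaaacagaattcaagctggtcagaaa
Dnm3, chr1:162243539-162243638: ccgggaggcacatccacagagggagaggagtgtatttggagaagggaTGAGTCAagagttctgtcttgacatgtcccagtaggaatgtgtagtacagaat
Dock5, chr14:67907630-67907729: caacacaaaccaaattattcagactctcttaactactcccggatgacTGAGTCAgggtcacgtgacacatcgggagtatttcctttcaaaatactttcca
Itga1, chr13:115032416-115032515: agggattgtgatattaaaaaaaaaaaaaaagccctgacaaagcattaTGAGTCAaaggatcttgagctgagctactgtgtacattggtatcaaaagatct
Limch1, chr5:67011394-67011493: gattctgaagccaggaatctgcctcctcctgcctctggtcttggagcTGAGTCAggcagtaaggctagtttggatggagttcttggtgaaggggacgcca

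Bach2 encodes a repressor that itself belongs to the wider AP-1 family, Wnt5b a secreted Wnt ligand, Dnm3 a dynamin GTPase of membrane scission, Dock5 an activator of Rac, Itga1 the alpha-1 chain of a collagen-binding integrin, and Limch1 an activator of non-muscle myosin. The midpoint of each of these members lay in an intron, between 11947 bp (Bach2) and 265424 bp (Limch1) from the start of its gene.

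The second set shows, for some of the genes that led the hosts or their lists, the 120 bases with the most kinds of match in a highest-scoring member. Stretches of Runx2, Tln2, Ror1, Pdgfra, Egfr, Gli3, Limch1 and Adamts2 held no AP-1 match and are left out. AP-1 is thus over-represented among those shown. The midpoint of each member shown lay in an intron. Capitals mark AP-1 (TGANTCA), TEAD (GGAATG, bound by the partners of YAP), RUNX (TGTGGT) and the E-box CAGCTG, on either strand. The stretches were picked for their matches and say nothing of how common these are, which is measured over all windows further on.
Cdk14, chr5:5343381-5343500: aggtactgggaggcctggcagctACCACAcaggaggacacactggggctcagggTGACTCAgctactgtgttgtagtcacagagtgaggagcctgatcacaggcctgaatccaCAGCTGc
Dnm3, chr1:162290571-162290690: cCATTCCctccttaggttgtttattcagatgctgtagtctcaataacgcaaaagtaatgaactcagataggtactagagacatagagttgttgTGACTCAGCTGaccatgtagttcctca
Lpp, chr16:24913191-24913310: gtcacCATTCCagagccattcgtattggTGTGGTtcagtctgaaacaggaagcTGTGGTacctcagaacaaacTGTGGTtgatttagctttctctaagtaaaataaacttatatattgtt
Acvr1, chr2:58530001-58530120: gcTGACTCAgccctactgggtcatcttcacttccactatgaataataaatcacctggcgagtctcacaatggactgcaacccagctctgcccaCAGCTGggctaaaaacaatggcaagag
Foxp1, chr6:99171321-99171440: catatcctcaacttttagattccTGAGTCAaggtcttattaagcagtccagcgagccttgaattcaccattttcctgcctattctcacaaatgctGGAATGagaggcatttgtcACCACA

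In the Cdk14 stretch an AP-1, a RUNX and an E-box match lay within 120 bases, and in that of Dnm3 the AP-1 match and the E-box shared bases. The Lpp stretch held 3 RUNX matches and 1 TEAD match.

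Stable distal H3K27ac intervals lay in gene bodies more often than the sequence open to them did. Of 4935 stable distal H3K27ac intervals under 20000 bp wide, 55.2% (95% CI 53.8 to 56.6) had their midpoint in a protein-coding gene, whereas 38.4% of all 500 bp windows over 1000 bp from H3K4me3 did. The share was above that of the windows on 20 of 20 chromosomes with members. Of all 15421 H3K27ac intervals, 5.23% were called at 1 oxygen level only. Distal intervals called at 2% oxygen only were in genes in 141 of 250 cases (56.4%, 95% CI 50.2 to 62.4), and those called at 21% oxygen only in 73 of 141 (51.8%, 95% CI 43.6 to 59.9). Both confidence intervals hold the share of the stable ones, so a difference in gene-body position between stable and condition-specific intervals was not detectable with these numbers.

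Members covered 19.0 Mb in all. Their median width was 5500 bp, the middle 50% spanned 4000 to 9000 bp, and the narrowest were 1000 bp. Stable distal intervals between genes had a median width of 4500 bp. The score that the authors' caller gave each interval runs from 50 to 160 with the remaining intervals at 1000, and its definition is not given in the sources used here. It was only ranked within a list. The median member scored 83.0 in the hypoxia list and 80.0 in the normoxia list, and 148 members stood at 1000 in both. In the hypoxia list 9.79% of members reached 138, the score that the top 25% of H3K27ac intervals start from, and 10.2% reached the corresponding 134 in the normoxia list. Wider members had higher scores, with hypoxia-list medians of 73.0 up to 4000 bp, 84 from 4500 to 9000 bp and 96.0 from 9500 to 19500 bp.

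At the limits of the rule, 13 members were 19500 bp wide and 15 comparable intervals in genes were left out at 20000 bp. Their median hypoxia-list scores were 108 and 110. The widest members included those in Foxp1, Igf1r, Mylk, Lrp1 and Nin. That of Mylk, the kinase that activates smooth muscle and stromal myosin, scored 1000 in hypoxia and 117 in normoxia. The one in Igf1r had the opposite order, with 108 in hypoxia and 1000 in normoxia. At the other limit, 11 members lay 1500 bp from H3K4me3, the nearest distance possible on the 500 bp grid of the calls, with a median hypoxia-list score of 76.0. The 8 intervals in genes that missed the limit at exactly 1000 bp had a median of 138.

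Within genes, members lay mostly in introns. The midpoint fell in the first intron of a transcript for 866 members (31.8%), in another intron for 1716 (62.9%), in untranslated exon sequence for 90 (3.30%) and in coding exons for 54 (1.98%, 95% CI 1.52 to 2.58). Of the eligible gene-body windows, 27.5% were in a first intron, 66.0% in another intron, 3.32% in untranslated exons and 3.20% in coding exons. First introns thus held more members than their share of sequence, on 16 of 20 chromosomes, and coding exons fewer.

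Along long genes the members were spread over the whole body. In 1327 host genes of at least 50 kb, with 2234 members, 21.2% (95% CI 19.6 to 23.0) were in the first of 4 equal parts from the gene start, 29.6% (95% CI 27.7 to 31.5) in the second, 25.3% in the third and 23.9% in the last. The eligible windows of the same genes were divided 23.8%, 25.4%, 25.4% and 25.4%. The second held more members than its share of windows and the first fewer. The rule leaves out H3K27ac intervals that reach within 1000 bp of H3K4me3, whereas windows beyond that distance stay eligible. The part of this in the low share of the first was not tested.

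The median distance from a member's midpoint to the nearest start of a protein-coding transcript was 30817 bp, compared with 56680 bp for stable distal intervals between genes and 35415 bp for unmarked windows of gene bodies. For 402 members (14.7%) no such start lay within 100 kb. The nearest start belonged to a host gene for 2096 members (76.9%, 95% CI 75.3 to 78.4), and for the remainder another gene's start was closer.

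The word distal did not hold for every member with respect to annotated starts. The rule measures distance from H3K4me3, and 185 members (6.79%, 95% CI 5.90 to 7.79) contained the start of a protein-coding transcript that carried no H3K4me3 peak. Runx2, the transcription factor required for bone formation, gave an example chosen after its values were seen. Its member at chr17:44812501-44816500 scored 133 in both lists, its midpoint lay 296 bp from the outermost start of the gene, and the nearest H3K4me3 peak was 34000 bp away. Runx2 did have H3K4me3 at another annotated start. A start of a long non-coding RNA was found in 83 members (3.04%, 95% CI 2.46 to 3.76) and in 177 stable distal intervals between genes (8.01%, 95% CI 6.95 to 9.22).

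The members fell in 1812 of 21938 protein-coding genes. A single member was found in 1274 hosts, 538 hosts held 2 or more, and 53 held 5 or more. Neighbouring members of a host were separated by a median gap of 26500 bp. Long introns are more likely to hold an interval by their size alone, so counts per gene are given beside gene lengths and counts per list are given per Mb.

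The genes with the most members were Gm20388 with 26 and Fgfr2 with 16, and in both cases the annotation set the count. The GENCODE M21 body of Gm20388 is a single read-through transcript of 4434882 bp on chromosome 8, and 14 of its 26 members were in no other gene. Fgfr2 encodes a fibroblast growth factor receptor with roles in the skeleton. Its body spans 2960900 bp in GENCODE because of 1 transcript, the other transcripts reaching at most 103813 bp, and none of its 16 members was inside the 104358 bp body that RefSeq gives it (0 of 16). In all, 79 of 2726 members were in no RefSeq protein-coding gene body. Results per gene or list are given without these 2 bodies where they touch them.

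Cdk14, a cyclin-dependent kinase with a role in Wnt signalling, then had the most members, 12 in a body of 616922 bp on chromosome 5. They lay between 77061 and 594311 bp from the gene start, and scores ran from 55 to 123 at 2% oxygen and from 51 to 123 at 21% oxygen. The member nearest the start, at chr5:5339501-5347000, scored 123 in both lists. None reached 1000 and all 12 were outside the first intron.

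Dnm3 held 11 members in 495582 bp on chromosome 1, from 182783 to 437283 bp downstream of its start. This gene also carries the antisense RNA Dnm3os, the precursor of miRNAs with a role in skeletal growth. The member at chr1:162287501-162303000 scored 1000 in both lists and that at chr1:162072501-162086000 scored 1000 in hypoxia and 145 in normoxia. The smallest scores among the others were 52 in hypoxia and 57 in normoxia.

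Rad51b, which acts in repair of DNA by homologous recombination, held 11 in 517409 bp. Its members at 50719 and 211719 bp from the start scored 1000 in hypoxia, and 128 and 112 in normoxia. Ttc28, a tetratricopeptide-repeat protein, held 9 with 5 of them wider than 5000 bp and scores between 57 and 132 in both lists. In 2010111I01Rik, an aminopeptidase gene, 4 of 8 members stood at 1000 in both lists, the most of these 10 hosts. Prkg1, the cGMP-dependent protein kinase of smooth muscle and stroma, held 8 in a body of 1200545 bp, from 235282 to 998782 bp from its start. Sipa1l1, a regulator of Rap GTPases, had 7 in 282467 bp, and its 3 nearest the start lay at 23431, 40431 and 63931 bp. Ctif, a factor of cap-dependent translation, had 7 in 266331 bp.

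Host genes mostly carried a marked promoter. Of the 1812 hosts, 1541 (85.0%, 95% CI 83.3 to 86.6) had an H3K4me3 peak within 1000 bp of a start, compared with 11480 of 20126 other protein-coding genes (57%, 95% CI 56.4 to 57.7). H3K27ac other than the members themselves was found within 1000 bp of a start in 62.4% of hosts (95% CI 60.2 to 64.6) and 35.1% of other genes (95% CI 34.5 to 35.8). Hosts are longer than other genes, so the shares were compared within classes of length.

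In genes of 200 kb or more, H3K4me3 marked a start in 91.9% of 397 hosts (95% CI 88.8 to 94.2) and in 72.5% of 601 others (95% CI 68.8 to 76.0). H3K27ac marked a start in 60.7% (95% CI 55.8 to 65.4) and 21.5% (95% CI 18.4 to 24.9). At 50 to 100 kb the H3K4me3 shares were 87.8% and 75.4%. Under 20 kb they were 48.2% of 110 hosts and 46.6% of others, with overlapping intervals. The rule keeps members away from H3K4me3, which leaves short genes with a marked start little room for one. The H3K27ac calls at these starts were not used to choose members, but they come from the same joint model of the same libraries.

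**Figure D1:**
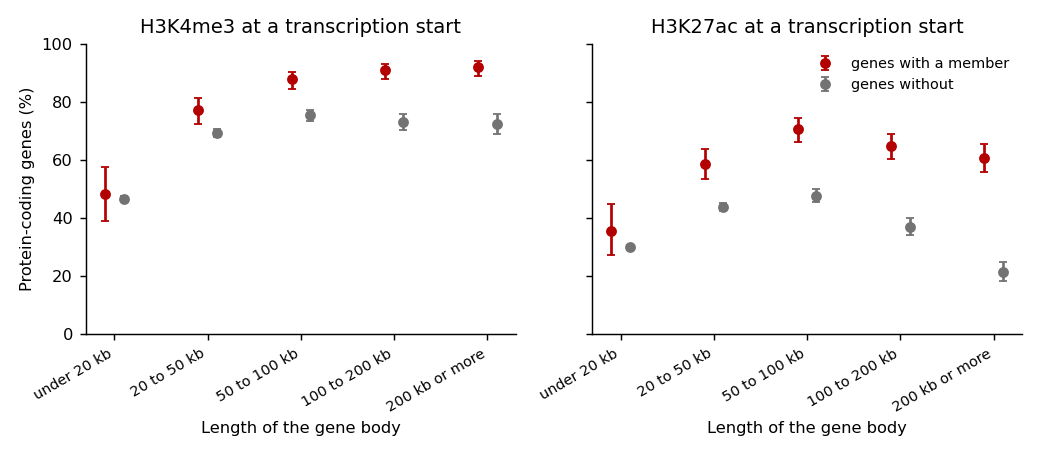
Share of protein-coding genes with H3K4me3 (left) or H3K27ac other than the members (right) within 1000 bp of a start, by class of gene length. Points are shares with 95% Wilson intervals for genes with a member (red) and without (grey). In the classes from 20 kb upwards the red points lie above the grey ones for both marks, with intervals that do not overlap.

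Seen per member, 1813 (66.5%) had a host start with both marks, 603 (22.1%) had H3K4me3 alone, 10 had H3K27ac alone and 300 (11.0%, 95% CI 9.88 to 12.2) had a host with neither mark at a start. Among the genes with neither were Pappa2, a protease that cleaves IGF-binding proteins, and Slc14a2, a urea transporter, with 6 members each, and Akap6, an anchor of protein kinase A, with 6. RefSeq starts of Pappa2 were 270549 bp from the nearest H3K4me3 peak, those of Slc14a2 509050 bp and those of Akap6 93087 bp. Tln2 (7 members) and Macf1 (5) also had neither mark at a GENCODE start, but the RefSeq start of each lay inside an H3K4me3 peak. For Tln2 this start is 74342 bp beyond the GENCODE body.

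Genes of cell adhesion, signalling and matrix were set beside all protein-coding genes by members per Mb of eligible gene body. Without Fgfr2 and Gm20388, all genes had 2.75 members per Mb (95% CI 2.65 to 2.86, an exact Poisson interval for counting error). Of 15 gene lists, 6 had an interval wholly above this value, 1 wholly below and 8 an interval that held it. With members of a single gene alone, all genes had 2.67, and the intervals of mesenchymal transcription factors (3.79, 95% CI 2.54 to 5.45) and of growth factor receptors with Fgfr2 (3.27, 95% CI 2.22 to 4.64) then held that value. That setting drops members shared between genes but keeps the Mb of their bodies, that of Fgfr2 included. No set test was made, and the lists were chosen with earlier results of these data known.

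Density differed between classes of gene length. It was 1.45 members per Mb in genes under 20 kb, 2.50 at 20 to 50 kb, 3.55 at 50 to 100 kb, 3.79 at 100 to 200 kb, 3.20 at 200 to 500 kb and 1.17 in genes of 500 kb or more. The 3.55 of the class of 50 to 100 kb lay inside the intervals of the fibrillar matrix list (median gene length 50.7 kb), the growth factor receptor list (62.6 kb) and the mesenchymal factor list (75.4 kb), so these lists were not set apart from genes of like length. It lay below the interval of the integrin and focal adhesion list.

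Integrins and focal adhesion genes had the highest density, 8.52 per Mb (95% CI 6.03 to 11.7), with 38 members in 21 of 46 genes and a median gene length of 74.5 kb. These genes link the extracellular matrix to the actin cytoskeleton. Tln2, a talin that couples integrins to actin, held 7 members. Their hypoxia-list scores were 1000, 68, 56, 72, 67, 71 and 56 in order of position on chromosome 9, and the normoxia-list scores were 1000, 70, 56, 66, 64, 51 and 57. Only the member at chr9:67227501-67239000 stood apart. Lpp, a LIM protein of focal adhesions, held 6 in 599072 bp with scores of 55 to 106 and 57 to 93. Tns1, a tensin that binds the tails of integrins, held 3, scoring 114, 112 and 103 in hypoxia and 89, 91 and 62 in normoxia. Integrin genes with 1 member each included Itga2, Itga9, Itga11, Itgav, Itgb3 and Itgb5.

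Wnt signalling followed with 7.08 per Mb (95% CI 4.67 to 10.3), 27 members in 12 of 63 genes. The receptor Ror1, which binds Wnt5a, held 6 that lay together between 225960 and 307710 bp from its start, and Ror2, its close relative, held 4 that were all in the first intron. Daam1, a formin that carries non-canonical Wnt signals to the cytoskeleton, held 3. The co-receptor Lrp5 and the transcription factors Tcf7l1 and Tcf7l2 were among those with 2 each.

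TGF-beta and activin signalling had 6.46 per Mb (95% CI 3.22 to 11.6) from 11 members in 6 of 38 genes. Acvr1, a type I receptor for BMPs and activins, held 4, with scores of 59, 66, 54 and 79 in hypoxia and 58, 60, 52 and 77 in normoxia. The ubiquitin ligases Smurf1 and Smurf2, which turn over receptors and SMADs, held 3 and 1. Without the lowest-scoring 25% of intervals the list had 2.35 per Mb (95% CI 0.640 to 6.01) and all genes 1.53, which lies inside that interval.

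Fibrillar matrix and matrix assembly genes had 5.16 per Mb (95% CI 3.27 to 7.75). Adamts2, which trims the N-terminal end of procollagen, and Lamc1, a laminin chain, held 3 each, and Col8a1 held 2, among 16 hosts of 56 genes.

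Growth factor receptors and the MAPK cascade had 4.35 per Mb without Fgfr2 (95% CI 2.91 to 6.25). Egfr, the receptor for epidermal growth factor, held 3 with scores of 93, 84 and 59 in hypoxia and 95, 82 and 60 in normoxia. Igf1r, the receptor for IGF1, held 3, of which the one at chr7:67965001-67975500 stood at 1000 in both lists. Mesenchymal and skeletal transcription factors had 4.45 per Mb (95% CI 3.08 to 6.21), 34 members in 15 of 49 genes with a median length of 75.4 kb. The E-protein Tcf4 held 7, with 2 at 1000 in both lists. Foxp1, a forkhead factor, held 5, Ebf1, a factor of stromal and fat precursors, held 4, and Runx2 held 4. The scores of Runx2 were 74, 134, 79 and 133 in hypoxia and 74, 132, 76 and 133 in normoxia. Its 2 highest were those at chr17:44518001-44522500 and at the gene start.

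Lineage genes of bone, cartilage and fat had intervals that held the value of all genes once Fgfr2 was left out. Osteoblast differentiation and bone matrix genes had 3.60 per Mb (95% CI 1.55 to 7.09), 8 members in 6 of 37 genes, where Lrp5 and Ltbp1, a binding protein of latent TGF-beta, held 2 each. With Fgfr2 the value was 4.75 (95% CI 3.04 to 7.07), and with members of a single gene alone it was 1.98 (95% CI 0.949 to 3.64). The last value still counts the Mb of the Fgfr2 body, from which members shared with other genes were dropped. Cartilage genes had 4.08 (95% CI 2.17 to 6.97), led by the hedgehog effector Gli3 and the repressor Trps1 with 3 each and Sox6 with 2. Adipocyte genes had 2.44 (95% CI 0.897 to 5.32), with 1 member each in Zfp423, a commitment factor, Acaca, which makes malonyl-CoA, and Tle3, a co-repressor, among 6 hosts of 34.

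YAP, TEAD and AP-1 regulators had 4.79 per Mb (95% CI 2.19 to 9.09), with 2 members each in the Hippo kinase Stk4 and in Bach2 and 1 in Tead1. Oxygen sensing and hypoxia response genes had 5.14 (95% CI 2.06 to 10.6) from 7 members in 5 of 42 genes. Without the lowest-scoring 25% of intervals 2 members remained, at 1.47 per Mb (95% CI 0.178 to 5.30) beside 1.53 for all genes. Arnt2, a partner of HIF proteins, held 3 that scored 75, 71 and 96 in hypoxia and 58, 64 and 76 in normoxia. Egln1, the prolyl hydroxylase that marks HIF for degradation, held 1 at 134 and 141, and Kdm4b, an oxygen-dependent histone demethylase, held 1 at 66 and 61.

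Lists of other cell types served to check the label of the cells. Neuronal genes had 0.128 members per Mb (95% CI 0.0416 to 0.299), 5 members in 39.0 Mb, with 1 each in Dlg2, Ptprd and Rbfox1. Their median length was 590 kb, and all genes of 500 kb or more stood at 1.17. Blood cell genes had 3.34 (95% CI 1.78 to 5.72), led by Celf2 with 4, Elmo1 with 3 and Fli1 with 2. Endothelial genes had 3.48 (95% CI 1.28 to 7.57), led by Fli1 with 2, Stab2 and Vwf with 1 each, and epithelial genes had 2.91 (95% CI 0.943 to 6.78), with 1 each in Trp63 and Cdh3 among 5 hosts of 38. Intervals of blood, endothelial and epithelial genes held the value of all genes, and the part of other cells in them was not tested.

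Genes that mark the sorted cells were also examined at their starts. Pdgfra, which encodes CD140a, had both marks at a start and 1 member, at chr5:75178501-75189000, with scores of 101 and 102. Pdgfrb, Prrx1, Twist1, Col1a1 and Thy1 had both marks at a start and no member. Ly6a, which encodes Sca-1, had H3K27ac without H3K4me3, and Nt5e and Eng had H3K4me3 without H3K27ac apart from members. Ptprc, which encodes CD45, had neither mark and 0 members. Pecam1, an endothelial gene, had neither mark at a start but 1 member that scored 76 and 75.

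**Figure D2:**
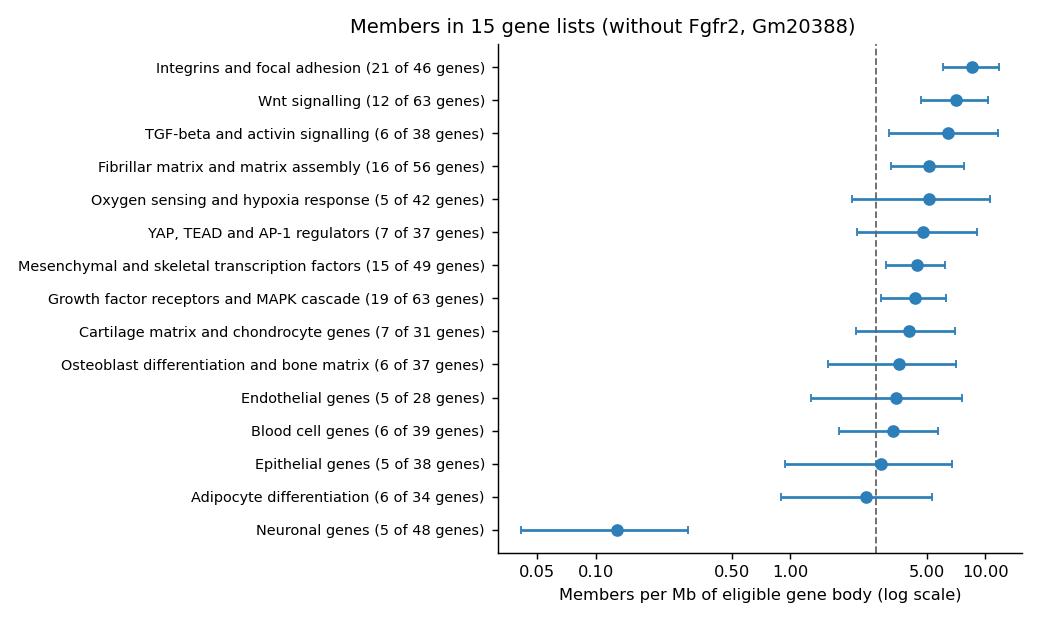
Members per Mb of eligible gene body in 15 gene lists, on a log axis, with 95% exact Poisson intervals for counting error. The labels give how many genes of each list held a member, and the dashed line marks all protein-coding genes (2.75 per Mb). Integrin and focal adhesion genes lie highest (8.52) and neuronal genes lowest (0.128).

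The members differed from unmarked gene body in base composition. The median GC content of their 500 bp windows was 45.2%, against 42.2% for gene-body windows away from both marks, and it was higher on 20 of 20 chromosomes. Windows of stable intervals between genes stood at 45.0%, those of hypoxia-only intervals in genes at 46.6% and those of normoxia-only intervals in genes at 43.3%. Per interval, the median GC content of members was 44.7%. Repeats took 20.3% of the bases in member windows and 28.4% of those in unmarked gene body, and the part of repeats in the calls was not tested. Because GC content shifts the frequency of short sequences, motif shares were also taken in windows with a GC content of 40 to 50% and beside the same letters in reverse order.

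AP-1 had, with SP/KLF, the highest ratio of the 22 motifs examined once GC content was held. The letters TGANTCA occurred on either strand in 17.6% of 37947 member windows (95% CI 17.2 to 18) and in 14.3% of unmarked gene-body windows, and the share was higher in members on 20 of 20 chromosomes. The genome as a whole stood at 14.3%. The reversed letters ACTNAGT gave 14.5% and 13.3%. In windows of 40 to 50% GC the ratio of members to unmarked gene body was 1.27 for AP-1 and 1.11 for the reversed letters. Where soft-masked repeats were not counted, in windows of any GC content, it was 1.32 and 1.15. AP-1 did not lead in that setting, where SP/KLF had 1.60 and the E-box CAGCTG 1.39, among others above it. TEAD (1.23) and RUNX (1.22) were among those below.

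The difference was larger for the letters that AP-1 binds best, a split chosen after seeing the data. TGACTCA or its reverse complement TGAGTCA occurred in 11.6% of member windows (95% CI 11.2 to 11.9) and 7.94% of unmarked ones, a ratio of 1.46. TGAATCA or its reverse complement TGATTCA, with A or T in the middle, occurred in 6.91% (95% CI 6.66 to 7.17) and 6.94%, a ratio of 0.995. The first was higher in members on 20 of 20 chromosomes and the second on 11. In windows of 40 to 50% GC the ratios were 1.41 and 1.12.

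The matches were concentrated at the midpoint of the members. In the 2725 midpoint windows that could be read, 14.5% (95% CI 13.3 to 15.9) held the letters with C or G in the middle, compared with 8.30% (95% CI 8.02 to 8.58) at 5000 to 8000 bp on either side. For the 883 members up to 4000 bp wide the midpoint share was 19.7% (95% CI 17.2 to 22.5), 2.48 times that of unmarked gene body. It had dropped to 15.9% and 15.3% in the adjacent windows and stood at 8.23% in the flanks. The letters with A or T in the middle reached 8.61% at these midpoints and 6.26% in the flanks. The sequences of Bach2, Wnt5b and Dnm3 shown above are of this kind.

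**Figure D3:**
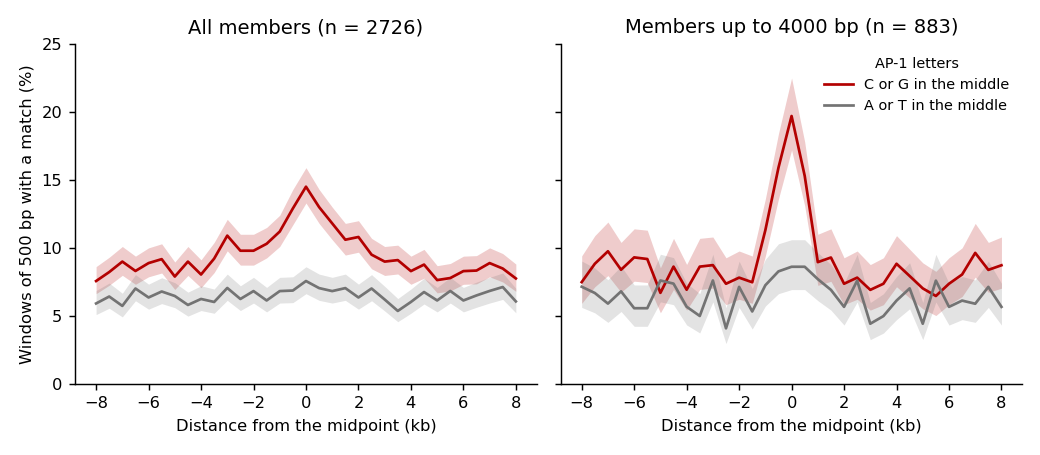
Share of 500 bp windows with AP-1 letters by distance in kb from the member's midpoint, for all members (left) and those up to 4000 bp wide (right). Red shows C or G in the middle and grey A or T, with 95% Wilson intervals shaded. The red line peaks at the midpoint, at 14.5% and 19.7%, and the grey line reaches 7.56% and 8.61% there.

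Scores did not order the AP-1 share where width was not held. In the lowest 25% of members by hypoxia-list score 11.7% of windows held the letters with C or G in the middle (95% CI 11.0 to 12.4), and in the highest 25% 11.3% (95% CI 10.7 to 11.9). By normoxia-list score the values were 11.6% and 11.6%. Median width was 4500 bp in the lowest 25% by hypoxia-list score and 7000 bp in the highest. The letters TGANTCA occurred in 19.4% of windows in members up to 4000 bp wide and in 16.7% in those of 9500 to 19500 bp. Whether scores order the share among members of like width was not tested. Stable intervals between genes reached 13.0% (95% CI 12.6 to 13.5), above the members, and hypoxia-only and normoxia-only intervals in genes had 9.76% (95% CI 8.46 to 11.2) and 12.2% (95% CI 10.1 to 14.7). The interval of the hypoxia-only share met that of the members at 11.2%, and the interval of the normoxia-only share held the members' value.

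Other motifs differed less once GC content was held. Across all windows 15 of 22 motifs had a higher share in members than in unmarked gene body and 7 a lower one. At 40 to 50% GC, 3 motifs had a ratio of 1.2 or more: AP-1, SP/KLF (GGGCGGG, 1.27) and STAT (TTCCNGGAA, 1.23). The reversed letters of the SP/KLF motif are the motif itself, so it has no comparator, and for STAT they gave 1.00. The reversed letters of the nuclear factor I (NFI) motif, ACGGTT, served only as a comparator and also gave 1.27. The frequency of the base pair step CG was not held. Over all windows it was 10.8 per kb in members and 8.79 per kb in unmarked gene body. Its part in these ratios was not tested. TEAD (26.8% against 24.6%), RUNX (35.7% against 32.3%) and the E-box CAGCTG (24.2% against 18.7%) were higher on 20 of 20 chromosomes each, but their ratios at 40 to 50% GC were 1.04, 1.06 and 1.12. The HIF letters ACGTG stood at 22.2% against 18.6%, or 1.10 at 40 to 50% GC. The AT-rich homeobox letters TAATTA were the furthest below, at 12.9% against 16.5%, and at 0.976 with GC held.

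**Figure D4:**
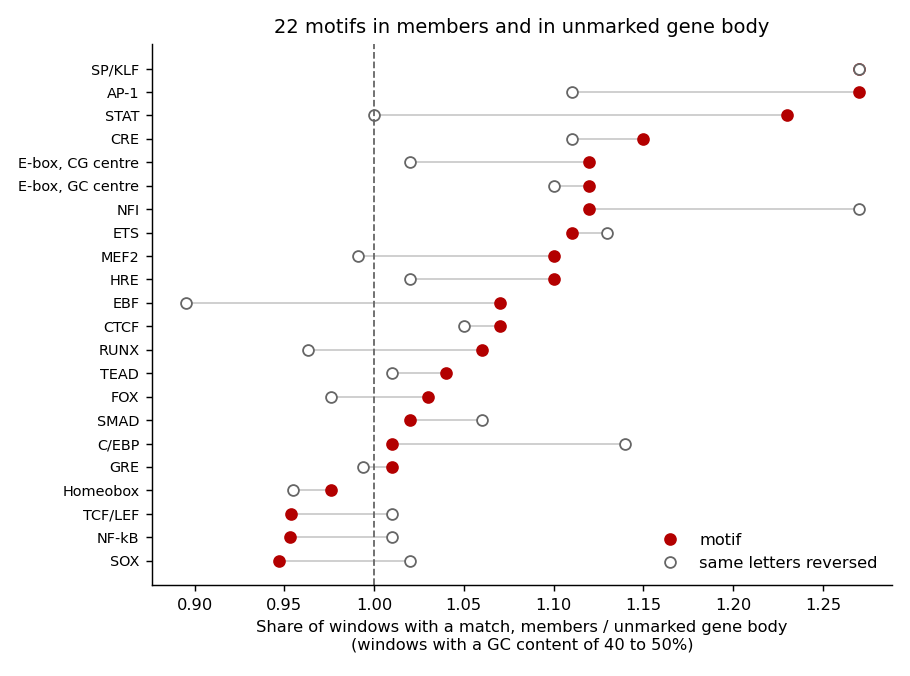
Ratio of the share of windows with a match in members to that in unmarked gene body, for 22 motifs (red) and the same letters reversed (open), in windows with a GC content of 40 to 50%. The dashed line marks equal shares. Among the red points AP-1 and SP/KLF lie furthest to the right at 1.27, where the open point of SP/KLF coincides with the motif. The open point of AP-1 is at 1.11, and that of NFI is also at 1.27.

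A miRNA hairpin was located inside 9 members. Of these, Mir190a in Tln2 and Mir92b in a member of Muc1 were in intervals that stood at 1000 in both lists, and Mir378c in Samd4 was in a member that scored 129 in hypoxia and 1000 in normoxia. Their mature sequences from RefSeq (GRCm38.p6) follow, with the seed (bases 2 to 8), which pairs with target RNAs, in capitals. The miRNAs themselves were not measured.
miR-190a-5p: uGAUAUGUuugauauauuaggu
miR-92b-3p: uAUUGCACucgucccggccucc
miR-378c: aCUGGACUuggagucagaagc

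The seeds differed between the 3 miRNAs. Mir190a lies at chr9:67236660-67236726, within the Tln2 member that stood apart from the others by its score.

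Few members had a condition-specific neighbour. Of the members, 14 touched a hypoxia-only interval and 4 a normoxia-only interval, 18 in all (0.660%, 95% CI 0.418 to 1.04). Stable distal intervals between genes gave 18 of 2209 (0.815%, 95% CI 0.516 to 1.28), and all stable H3K27ac intervals gave 323 of 14614 (2.21%, 95% CI 1.98 to 2.46). The rule used the calls of the same contrast, so this is a description only.

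Members were spread over the autosomes and scarce on the X chromosome. Density ranged from 2.16 to 3.68 members per Mb of eligible gene body over the 19 autosomes, with 2.87 (95% CI 2.77 to 2.98) overall. On the X it was 0.530 (95% CI 0.336 to 0.796), from 23 members. Hs6st2, an enzyme that sulphates heparan chains, held 3 of these, and Msn, the actin-membrane linker moesin, held 2. Stable distal intervals between genes also dropped, from 1.59 to 0.187 per Mb, as did stable H3K27ac at or touching H3K4me3, from 3.83 to 0.954. Male cells have a single X, and the part of this in the difference was not tested.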

How the data were processed

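The authors aligned reads to mm10 (bowtie2), discarded duplicates (Picard) and used chromstaR in its differential mode for peaks (bin size 1000, step 500). They deposited 4 peak lists, 1 per mark and oxygen level, each from both libraries. Only positions and the deposited score of each peak were used. Overlapping intervals of the H3K27ac lists were identical, and those in both lists were taken as stable. Gene bodies, transcripts and starts came from GENCODE M21 basic, sequence from GRCm38.p6, and alternative gene bodies from RefSeq. A member counted for every gene body that held its midpoint. The genome was divided into 500 bp windows with at least 450 known bases. Eligible windows lay over 1000 bp from H3K4me3, and unmarked ones outside H3K27ac too. A start was marked by a peak within 1000 bp of it. Motif scanning was tested on simulated sequence. All 679 listed genes matched the annotation, 2 through another symbol. A gene list and a gene are not reported here. Named genes were the 10 hosts with the most members, and 3 per list, with ties ordered by bases covered, and members at the limits of the rule. Others named were chosen after their values were seen. Members, lists and motifs were chosen with earlier results of these data known. Python 3.11.15, pandas 2.3.3 and statsmodels 0.14.6 were used.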

Additional observations from a re-analysis of the deposited data

How the results depend on the processing

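No paired analysis was possible because each list pools both libraries of its group and carries no replicate number, and leaving out a replicate could not be run for the same reason. Depth, input and replicate spread limit every value. The share of stable distal intervals inside genes was 57% with no upper limit on width, 52.0% where the whole interval had to be inside, and 53.8% without the lowest-scoring 25% of either list. The density over all genes was 3.04, 2.60 and 1.53 members per Mb under these settings, and 2.87 on autosomes only. Without the lowest-scoring 25%, which keeps 1515 members, the median scores were 107 in hypoxia and 104 in normoxia and the median GC content per member 45.1% (44.7% as reported). With no upper limit on width, the normoxia median score was 82.0. The share of host genes with H3K4me3 at a start was 87.0% with the whole interval inside and 90.1% in genes of 50000 bp or more. The median distance to a start was 32390 bp over 5000 bp from H3K4me3. The AP-1 share of windows was 17% with no width limit, 18.3% at 40 to 50% GC, 20.9% in the midpoint window and 15.2% without soft-masked sequence. The remaining 55 of these recomputed values stayed within the counting interval of the reported one. Bodies from RefSeq and leaving out Fgfr2 and Gm20388 were chosen after seeing the data. With RefSeq bodies, 54.7% of stable distal intervals and 38.0% of eligible windows were in genes. Some recomputed list densities could not change. Settings that alter only the motif scan left YAP, TEAD and AP-1 regulators at 4.79, and leaving out Fgfr2 left lists without it as they were. With these counted, 114 recomputed densities of the lists stayed within their interval and 10 moved, 7 of them without the lowest-scoring intervals. Integrin and focal adhesion genes then had 4.26 members per Mb, and 12.3 with no upper limit on width. With members of a single gene alone, osteoblast genes had 1.98 (all genes 2.67), with the Mb of the Fgfr2 body still counted. Without the lowest-scoring intervals, oxygen sensing genes had 1.47 and epithelial genes 1.16 (all genes 1.53). The counting intervals of these osteoblast, oxygen sensing and epithelial values held the value of all genes. Those of the integrin and focal adhesion list lay above it, at 2.56 to 6.65 without the lowest-scoring intervals (all genes 1.53). With no upper limit on width its interval was 9.28 to 16.0 (all genes 3.04).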
